A study of Mus musculus with 4 samples.

Results

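The genes described here are the chemokines and the chemokine receptors of the mouse, taken as all genes whose symbol is one of the standard family stems (Ccl, Cxcl, Xcl or Cx3cl for ligands, Ccr, Cxcr, Xcr or Cx3cr for receptors, Ackr for atypical receptors) followed by a number and at most 1 letter. The files list 60 such genes among 21993: 38 ligands, 18 signalling receptors and 4 atypical receptors. RNA was sequenced from 4 samples labelled as uterine NK cells of pregnant mice (gd11.5, a day of mid-gestation). NK cells are innate lymphocytes that accumulate in the decidua, the lining of the pregnant uterus, and the labels give a flow-cytometry sort of CD3-CD45+NK1.1+ cells. The Ncr1Cre group (2 libraries) came from females that carried Cre recombinase driven from Ncr1, a gene of NK cells and related innate lymphoid cells, and the control group (2 libraries) from females without Cre that otherwise share the labelled genotype, all mated with B6 males. No label states that the 2 libraries of a genotype are from different animals or pools, so each p-value reflects library-to-library spread, and that spread may be technical only.

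Chemokines are small secreted proteins that guide leukocytes through G protein-coupled receptors, and are classed as CXC, CC, C or CX3C by the spacing of their first cysteines. Several ligands usually share a receptor and a ligand can bind several receptors, while atypical receptors bind chemokines without G protein signalling and mostly remove them. In the pregnant mouse uterus, decidual stromal cells are known to silence genes of T-cell-attracting chemokines such as Cxcl9 and Cxcl10, and mucosal epithelia are known sources of Ccl20, Ccl28 and Cxcl17.

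Levels are FPKM (fragments mapped to a transcript, scaled by its length and by the depth of the library), so levels can be compared between genes. The depth implied by the steps of low values was 20960000 to 38500000 fragments, so 1 fragment on 1 kb of transcript is worth 0.026 to 0.0477 FPKM and values far below 1 FPKM rest on few fragments. The labelled cell type was set against its markers. Of the sort markers and defining NK genes, Ncr1 gave 0 and 0.152 FPKM in Ncr1Cre, against 0.136 and 0.359 FPKM in the control libraries, and Klrb1c, the gene of NK1.1, stayed under 1 FPKM in all 4. A list of 14 NK markers summed to 46.3 and 48.1 FPKM in Ncr1Cre and to 29.6 and 30.5 FPKM in the control libraries. By contrast 13 markers of decidual stroma summed to 15000.2 and 15010.1 FPKM in Ncr1Cre and to 33428 and 33974 FPKM in the control libraries, and 12 epithelial markers, mostly Prap1, to 49309 and 52339 FPKM in Ncr1Cre and to 10245 and 10366 FPKM in control. The libraries of both genotypes thus go against their label, and the chemokine values below are those of these libraries, not of a named cell. Of the tested markers, 12 of 12 epithelial, 6 of 8 macrophage and dendritic cell, 2 of 3 neutrophil, 5 of 5 trophoblast and 4 of 8 NK-cell genes were called higher in Ncr1Cre, while 11 of 13 stromal and 7 of 7 smooth-muscle genes were called lower. Over all tested genes 30.9% were called higher and 17.6% lower. In such bulk samples, fewer cells of a type and less RNA per cell cannot be told apart, and the part of these cell types in any chemokine difference was not tested.

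Chemokine ligands were abundant and their receptors were not, in both genotypes. The 38 ligands summed to 1143 and 1195 FPKM in the Ncr1Cre libraries, against 1517 and 1546 FPKM in the control libraries. The 18 signalling receptors summed to 8.26 and 9.66 FPKM in the Ncr1Cre libraries, against 4.31 and 3.89 FPKM in the control libraries. The 4 atypical receptors summed to 120.2 and 121 FPKM in Ncr1Cre and to 314 and 299.8 FPKM in the control libraries, nearly all of it Ackr3. Both the ligand sum and the atypical receptor sum were thus lower in Ncr1Cre and the receptor sum higher, with no overlap of the genotypes. No test was made on these sums. Of the ligands, 25 stood at 1 FPKM or more in each Ncr1Cre library, against 20 and 19 in the control libraries. Of the signalling receptors, 1 and 2 reached that level in Ncr1Cre, against 1 in each control library.

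The ligand pool was less concentrated in Ncr1Cre. Ccl2 was the highest ligand in all 4 libraries and took 29.8% and 28.8% of the ligand sum in the Ncr1Cre libraries, against 40.6% and 38.5% in the control libraries. Cxcl1 and Cxcl10 ranked next by mean level in both genotypes, and these top 3 ligands took 57.2% and 56.7% of the sum in Ncr1Cre, against 78.4% and 77.7% in control. Behind them the order differed: in Ncr1Cre it ran Cxcl2, Ccl21a, Cxcl17, Ccl7 and Ccl28, and in control Ccl7, Cxcl2, Cxcl12, Cxcl17 and Ccl21a. Cxcl17 and Ccl7 in Ncr1Cre, at means of 71.6 and 71.4 FPKM, did not differ beyond their spread, nor did Cxcl17 and Ccl21a in control, at 23.1 and 21.9 FPKM.

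**Figure D1:**
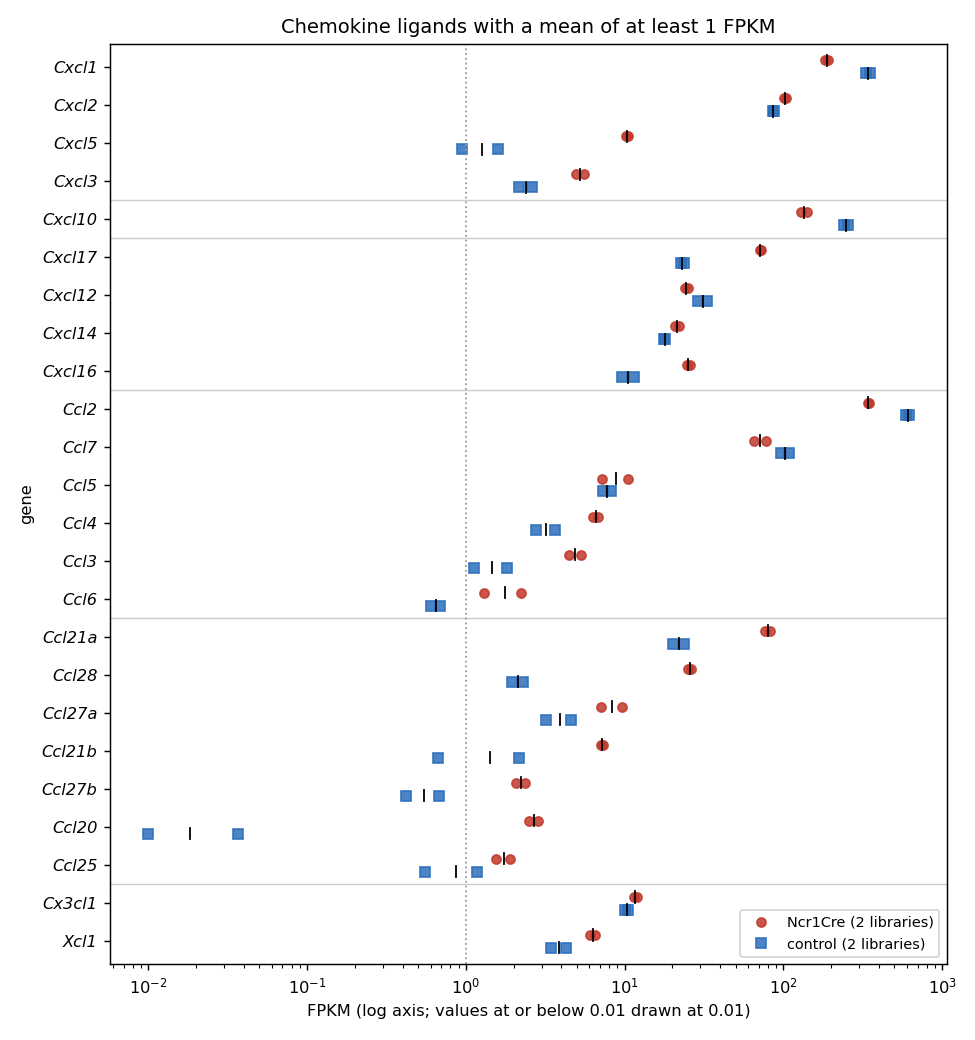
FPKM on a log axis of the 24 tested ligands, by role, with 2 Ncr1Cre libraries as circles above 2 control libraries as squares and a black tick at each mean. Ccl2, Cxcl1 and Cxcl10 lie highest and to the left in Ncr1Cre, while Ccl28, Cxcl5 and Ccl20 lie to the right.

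The test was limma on log2(FPKM + 1), for the 11762 genes whose 4 values averaged 1 FPKM or more. Log2 fold changes (Ncr1Cre over control) are on that scale, where the change of a weakly expressed gene appears smaller than it is. Of the 60 genes, 27 passed the filter (24 ligands, 1 signalling receptor and 2 atypical receptors). At an adjusted p under 0.05 (Benjamini-Hochberg over all genes tested), 17 of the 27 were higher and 7 lower in Ncr1Cre, where 30.9% of all tested genes were called higher and 17.6% lower, 48.5% in all. Of all genes, 2071 were called lower, and 1354 without control replicate 1. The median log2 fold change of the 27 genes was 0.72, against 0.11 over all tested genes. A gene could pass the filter through 1 genotype alone, so these counts describe the family and support nothing about it. Scaling moved the split over all genes more than that of the family: after median rescaling, which took the median log2 fold change of all genes to -0.05, 2632 genes were called higher and 3069 lower, against 3638 and 2071 as deposited, while 14 of the 27 were called higher and 7 lower. Ligands gave 16 higher, 5 lower and 3 that did not pass, and the 3 tested receptors gave 1 higher (Cxcr4) and 2 lower (Ackr3 and Ackr4).

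**Figure D2:**
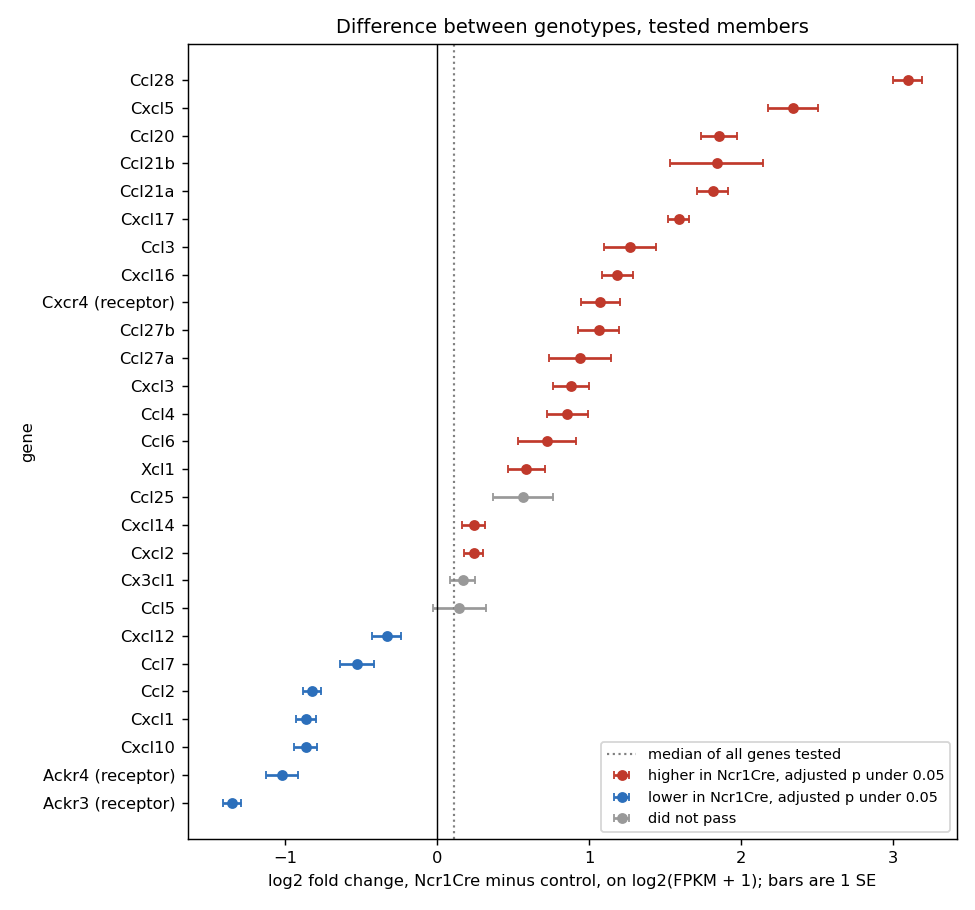
Log2 fold change (Ncr1Cre minus control, on log2(FPKM + 1)) of the 27 tested genes, with bars of 1 SE and n = 2 libraries per genotype. The values run from -1.35 for Ackr3 to 3.10 for Ccl28, and the dotted line marks the median of all tested genes at 0.11.

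Among CXC ligands of Cxcr2, the receptor that draws neutrophils, Cxcl5, Cxcl3 and Cxcl2 were higher and Cxcl1 was lower in Ncr1Cre. Cxcl1 stood at 184 and 192 FPKM in the Ncr1Cre libraries, against 333 and 352 FPKM in the control libraries, 1.82-fold lower in Ncr1Cre (log2 fold change -0.86, SE 0.0652, adjusted p = 0.000656). Cxcl5 stood at 10.2 and 10.5 FPKM in the Ncr1Cre libraries, against 0.941 and 1.60 FPKM in the control libraries, 8.18-fold higher in Ncr1Cre (log2 fold change 2.34, SE 0.162, adjusted p = 0.000517). In both genes the genotypes lay far apart compared with the replicates. Cxcl3 stood at 5.54 and 4.98 FPKM in the Ncr1Cre libraries, against 2.17 and 2.62 FPKM in the control libraries (log2 fold change 0.88, SE 0.119, adjusted p = 0.00368). Cxcl2 had 103 and 101 FPKM in the Ncr1Cre libraries, against 85.9 and 86.8 FPKM in the control libraries, a 1.18-fold difference (log2 fold change 0.24, SE 0.0609, adjusted p = 0.0263) that did not pass after median rescaling (log2 fold change 0.08, adjusted p = 0.357) or without any 1 of the 4 libraries. Cxcl15, or lungkine, a neutrophil attractant known from mouse lung and uterine glands, averaged under 1 FPKM, with 1.36 and 1.47 FPKM in the Ncr1Cre libraries, against 0.238 and 0.160 FPKM in the control libraries. Both of its Ncr1Cre libraries lay above both control libraries. Of neutrophil markers, S100a8 had 9.84 and 8.30 FPKM in the Ncr1Cre libraries, against 0.710 and 0.847 FPKM in the control libraries. S100a9 was also called higher, with 9.96 and 10.6 FPKM in Ncr1Cre, against 1.35 and 0.831 FPKM in control. The third tested marker, Mpo, did not pass, with 1.08 FPKM in both Ncr1Cre libraries, against 1.13 and 1.46 FPKM in control. The list of 8 summed to 23.1 and 22.6 FPKM in Ncr1Cre, mostly S100a8 and S100a9, and to 3.45 and 3.50 FPKM in the control libraries. The other markers averaged under 1 FPKM and were not tested. Csf3r had 0.703 and 0.621 FPKM in Ncr1Cre, against 0.163 and 0.103 FPKM in control. Ngp had 1.03 and 1.68 FPKM in Ncr1Cre, against 0 and 0.0412 FPKM in control. Camp had 0.448 and 0.243 FPKM in Ncr1Cre, against 0.0920 and 0.0824 FPKM in control. Ly6g was under 0.1 FPKM in all 4 and listed at 0 in both control libraries. Elane was listed at 0 in all libraries but control replicate 2, with 0.128 FPKM there.

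Cxcl1, Cxcl2 and Cxcl3 lie in 1 gene cluster and differ in direction, so the 250 bases before their RefSeq start sites are shown, with those of Ccl20, which hold the same motif. Capitals mark GGNNTTTCC on either strand, the core letters of a site of NF-kB, a transcription factor of inflammation; a run that begins with GGAAA is a match on the opposite strand. Sequences are of build GRCm38.p6, 5′ to 3′ on the gene's strand (the plus strand for all 4): chr5:90890995-90891244 for Cxcl1, chr5:90903649-90903898 for Cxcl2, chr5:90785851-90786100 for Cxcl3 and chr1:83116516-83116765 for Ccl20.
Cxcl1: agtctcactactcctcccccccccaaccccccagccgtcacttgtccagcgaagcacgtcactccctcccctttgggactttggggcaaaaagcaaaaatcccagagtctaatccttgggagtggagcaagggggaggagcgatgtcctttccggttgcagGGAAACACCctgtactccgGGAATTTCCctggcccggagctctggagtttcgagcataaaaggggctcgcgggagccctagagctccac
Cxcl2: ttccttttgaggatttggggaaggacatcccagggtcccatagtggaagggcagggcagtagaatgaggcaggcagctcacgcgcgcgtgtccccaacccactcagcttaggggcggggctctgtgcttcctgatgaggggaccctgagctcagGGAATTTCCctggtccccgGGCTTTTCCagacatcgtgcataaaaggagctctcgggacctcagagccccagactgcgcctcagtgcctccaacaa
Cxcl3: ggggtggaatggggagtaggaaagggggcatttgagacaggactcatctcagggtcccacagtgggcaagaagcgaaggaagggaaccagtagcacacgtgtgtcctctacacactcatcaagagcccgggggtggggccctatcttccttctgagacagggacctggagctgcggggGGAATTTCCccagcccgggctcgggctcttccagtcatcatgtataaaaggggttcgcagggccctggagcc
Ccl20: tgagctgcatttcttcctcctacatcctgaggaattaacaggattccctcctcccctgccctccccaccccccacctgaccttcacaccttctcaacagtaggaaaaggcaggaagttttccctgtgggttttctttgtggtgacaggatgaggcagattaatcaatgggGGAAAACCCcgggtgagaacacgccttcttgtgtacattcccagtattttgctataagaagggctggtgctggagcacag
The run GGAATTTCC stood in all 3 CXC promoters, with its first base at position -70 from the start in Cxcl1, -96 in Cxcl2 and -72 in Cxcl3. RefSeq promoters were matched for 45 of the 60 genes, with 52 windows in all. The motif was found in 9 of these 52 windows (Ackr4, Ccl20, Ccl9, Ccr3, Cxcl1, Cxcl2, Cxcl3, Cxcl9 and Cxcl10) and in 4.93% of all 32851 promoter windows. Of its tested carriers, Ackr4, Cxcl1 and Cxcl10 were lower in Ncr1Cre and Ccl20, Cxcl2 and Cxcl3 higher. A match is a match of letters and no evidence of binding.

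Cxcl10 was the abundant ligand of Cxcr3, the receptor of activated T cells and NK cells, and was lower in Ncr1Cre, with 129 and 142 FPKM in the Ncr1Cre libraries, against 240.3 and 254 FPKM in the control libraries (log2 fold change -0.86, SE 0.0757, adjusted p = 0.000993). Its control values lay above those of Ncr1Cre without overlap, as in 29.9% of all tested genes, and it was 1.82-fold lower in Ncr1Cre. Cxcl9, induced by the same interferon-gamma signal, stood at 0.437 and 0.245 FPKM in the Ncr1Cre libraries, against 0.460 and 0.365 FPKM in the control libraries, and its genotypes overlapped. Cxcl11 was listed at 0 in all 4 libraries. Cxcl10 was thus present without Cxcl9 at a comparable level in every library: its mean was 136 FPKM in Ncr1Cre and 247 FPKM in control, against 0.341 and 0.413 FPKM for Cxcl9. The promoter of Cxcl10 is shown because it holds this motif and a second one (chr5:92348890-92349139, GRCm38.p6, minus strand, 250 bases before the start, 5′ to 3′).
Cxcl10: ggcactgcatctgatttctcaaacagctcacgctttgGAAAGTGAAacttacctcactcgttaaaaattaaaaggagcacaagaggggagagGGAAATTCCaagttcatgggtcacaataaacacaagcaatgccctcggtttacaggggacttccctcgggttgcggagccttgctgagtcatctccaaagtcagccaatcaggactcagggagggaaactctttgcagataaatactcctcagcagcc
The first capitals match GAAANNGAA, the core letters of an interferon-stimulated response element, which 7.13% of all promoter windows hold. The others match GGNNTTTCC on the opposite strand, and the 2 matches share no base. The interferon letters were also found in the matched promoters of Ccl1, Ccl3, Ccl19, Ccr2, Cxcl9, Cxcl14 and Cxcr1, so Cxcl9 held both motifs too.

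Of the 4 other CXC ligands tested, 3 were called higher and 1 lower in Ncr1Cre, where 30.9% and 17.6% of all tested genes were. Cxcl17, a mucosal chemokine, stood at 70.8 and 72.4 FPKM in the Ncr1Cre libraries, against 23.6 and 22.7 FPKM in the control libraries (3.10-fold, log2 fold change 1.59, SE 0.0672, adjusted p = 0.000203). Cxcl16, a membrane-bound ligand of Cxcr6 that also acts as a scavenger receptor, averaged 25.3 ± 0.564 FPKM in Ncr1Cre and 10.6 ± 1.31 FPKM in control (SD, n = 2; log2 fold change 1.19, SE 0.104, adjusted p = 0.000993). The genotypes were well separated in both. Cxcl14, an epithelial and stromal chemokine of the uterus, averaged 21.4 ± 0.923 FPKM in Ncr1Cre and 17.9 ± 0.241 FPKM in control (SD, n = 2; log2 fold change 0.24, SE 0.0761, adjusted p = 0.0497), and it passed in only 2 of 10 alternative settings. Cxcl12, the stromal ligand of Cxcr4, stood at 23.9 and 25.2 FPKM in the Ncr1Cre libraries, against 29.1 and 33.3 FPKM in the control libraries (log2 fold change -0.33, SE 0.0930, adjusted p = 0.0361), a difference that did not pass without Ncr1Cre replicate 1, Ncr1Cre replicate 2 or control replicate 2 (adjusted p = 0.113, 0.0625 and 0.142). Cxcl13, which guides B cells, was at most 0.15 FPKM in any library.

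Ccl2 and Ccl7, neighbouring genes of monocyte attractants that act through Ccr2, were both lower in Ncr1Cre. Ccl2 stood at 341 and 344 FPKM in the Ncr1Cre libraries, against 615 and 596 FPKM in the control libraries, 1.77-fold lower in Ncr1Cre (log2 fold change -0.82, SE 0.0582, adjusted p = 0.000560). Ccl7 stood at 65.2 and 77.6 FPKM in the Ncr1Cre libraries, against 97.0 and 109 FPKM in the control libraries (log2 fold change -0.53, SE 0.112, adjusted p = 0.0154), with an adjusted p of 0.0647 without control replicate 2. Both control libraries lay above both Ncr1Cre libraries in each gene, as in 29.9% of all tested genes. The 4 other genes that follow them in the reference order, Ccl11, Ccl12, Ccl8 and Ccl1, were under 1 FPKM in all 4 libraries. Ccl11, an eosinophil attractant, had 0.944 and 0.628 FPKM in the Ncr1Cre libraries, against 0.396 and 0.742 FPKM in the control libraries, with overlap of the genotypes. Of 13 tested stromal markers, 11 were called lower in Ncr1Cre, where 17.6% of all tested genes were. The median log2 fold change was -1.06 over all 13. Wnt4 did not pass, and Prl8a2, a prolactin-family gene of decidual cells, was higher with 21.9 and 24.7 FPKM in the Ncr1Cre libraries, against 3.35 and 4.12 FPKM in the control libraries (log2 fold change 2.36, SE 0.120, adjusted p = 0.000273).

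In the second CC cluster, Ccl3 and Ccl4, attractants that NK cells and macrophages secrete, were higher in Ncr1Cre. Ccl3 stood at 4.49 and 5.31 FPKM in the Ncr1Cre libraries, against 1.81 and 1.13 FPKM in the control libraries (3.34-fold, log2 fold change 1.27, SE 0.170, adjusted p = 0.00366). Ccl4 had 6.32 and 6.80 FPKM in the Ncr1Cre libraries, against 2.76 and 3.62 FPKM in the control libraries (2.06-fold, log2 fold change 0.86, SE 0.133, adjusted p = 0.00573). Neither gene showed overlap of the genotypes, and 46.4% of all tested genes lay higher in Ncr1Cre without overlap. Ccl6, a myeloid chemokine of rodents, had 1.29 and 2.22 FPKM in the Ncr1Cre libraries, against 0.601 and 0.692 FPKM in the control libraries (log2 fold change 0.72, SE 0.189, adjusted p = 0.0291), and it did not pass after median rescaling (adjusted p = 0.0653), quantile normalization (0.116) or without any of 3 libraries (0.0545 without Ncr1Cre replicate 2, 0.104 without control replicate 1 and 0.079 without control replicate 2). Ccl5, an attractant of T cells and NK cells that cytotoxic lymphocytes secrete, had 7.26 and 10.5 FPKM in the Ncr1Cre libraries, against 7.32 and 8.25 FPKM in the control libraries, with overlap of the genotypes (log2 fold change 0.15, SE 0.176, adjusted p = 0.524). Its sign turned after median rescaling and quantile normalization and without Ncr1Cre replicate 2. Ccl9 stayed under the filter at 0.575 and 0.466 FPKM in the Ncr1Cre libraries, against 0.344 and 0.288 FPKM in the control libraries. Of the macrophage and dendritic cell markers, 13 genes summed to 99.4 and 97.8 FPKM in Ncr1Cre and to 30.3 and 31.3 FPKM in the control libraries. In Ncr1Cre most of that sum was Cd14 (37.4 and 33.6 FPKM) and Cd68 (22.7 and 24.2 FPKM). Of 8 tested, 6 were called higher, beside 30.9% of all tested genes, and Itgax and H2-Ab1 did not pass. Emr1, Fcgr1 and Mrc1 stayed under 1 FPKM, with both Ncr1Cre values above both control values. Flt3 and Siglech, also under 1 FPKM, overlapped. Of the 8 tested NK-cell markers, Tyrobp, Prf1, Il2rb and Itga2 were called higher, and Gzma, Nkg7, Cd7 and Klra8 did not pass.

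CC ligands of mucosal and lymphoid homing receptors included Ccl28 and Ccl20, the genes with the largest log2 fold change of the family at a pseudocount of 1 (Ccl28, 3.10) and of 0.1 (Ccl20, 4.57, against 3.54 for Ccl28). Of 7 tested, 6 were called higher and 0 lower in Ncr1Cre, where 30.9% and 17.6% of all tested genes were. The 6 include 2 pairs of near-identical copies, and Ccl20 and Ccl27b averaged under 1 FPKM in control and so passed the filter through Ncr1Cre alone. Ccl28, a mucosal ligand of Ccr10, stood at 25.0 and 26.3 FPKM in the Ncr1Cre libraries, against 1.96 and 2.28 FPKM in the control libraries, 12.1-fold higher in Ncr1Cre (log2 fold change 3.10, SE 0.0966, adjusted p = 0.000134). Ccl20, the ligand of Ccr6, had 2.87 and 2.52 FPKM in the Ncr1Cre libraries, against 0.0367 and 0 FPKM in the control libraries (log2 fold change 1.86, SE 0.117, adjusted p = 0.000416, a value that depends on the pseudocount). Ccl20 was thus near or at 0 in control, and no fold is given for it. Epcam, an epithelial adhesion gene, had 122 and 121 FPKM in the Ncr1Cre libraries, against 27.7 and 29.4 FPKM in the control libraries (log2 fold change 2.05). Ccl25, a ligand of Ccr9, had 1.91 and 1.55 FPKM in the Ncr1Cre libraries, against 1.18 and 0.554 FPKM in the control libraries, and did not pass (log2 fold change 0.57, SE 0.195, adjusted p = 0.0649), although the genotypes did not overlap, as in 76.2% of all tested genes. Its adjusted p was 0.0277 without control replicate 1.

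Ccl21a and Ccl21b encode near-identical ligands of Ccr7 that guide dendritic cells and naive T cells along lymphatic vessels. Ccl21a stood at 76.2 and 82.8 FPKM in the Ncr1Cre libraries, against 20.2 and 23.7 FPKM in the control libraries, 3.62-fold higher in Ncr1Cre (log2 fold change 1.81, SE 0.102, adjusted p = 0.000333). Ccl21b had 7.09 and 7.35 FPKM in the Ncr1Cre libraries, against 2.15 and 0.672 FPKM in the control libraries (log2 fold change 1.84, SE 0.304, adjusted p = 0.00701), and its control replicates were far apart. The separate values of these copies are uncertain: 100% of the 31-base words of Ccl21b transcripts and 80.6% of those of Ccl21a occur in transcripts of another gene. The same holds for Ccl27b (100%) and Ccl27a (57.0%), skin-type ligands of Ccr10, which had means of 2.23 ± 0.208 FPKM in Ncr1Cre and 0.549 ± 0.185 FPKM in control and, for Ccl27a, of 8.39 ± 1.77 FPKM in Ncr1Cre and 3.90 ± 1.02 FPKM in control (SD, n = 2). Both were called higher (log2 fold change 1.06, adjusted p = 0.00319 for Ccl27b, and 0.94, adjusted p = 0.0158 for Ccl27a), and Ccl27a did not pass without control replicate 2 (adjusted p = 0.0528). Lyve1, a lymphatic marker, had 7.66 and 7.55 FPKM in the Ncr1Cre libraries, against 3.46 and 3.77 FPKM in the control libraries, and 2 of 3 tested lymphatic markers were called higher and 1 lower. Ccl19, the other ligand of Ccr7, had listed values of 0 in both Ncr1Cre libraries and in 1 control library, with 0.0241 FPKM in the other, and 58.8% of its words are shared with Gm2564, so its values are uncertain too.

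The single C and CX3C ligands were present in both genotypes. Xcl1, a product of NK cells and T cells that attracts cross-presenting dendritic cells, stood at 6.55 and 6.05 FPKM in the Ncr1Cre libraries, against 4.27 and 3.46 FPKM in the control libraries (1.63-fold, log2 fold change 0.59, SE 0.121, adjusted p = 0.0138). It did not pass without control replicate 2 (adjusted p = 0.0575). Cx3cl1, or fractalkine, a membrane-bound ligand made by endothelium and epithelium, averaged 11.7 ± 0.289 FPKM in Ncr1Cre and 10.3 ± 0.382 FPKM in control (SD, n = 2) and did not pass (log2 fold change 0.17, SE 0.0820, adjusted p = 0.150). Its means were 1.14-fold apart.

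The other 14 ligands averaged under 1 FPKM and were outside the main test. Without a filter, Cxcl15 was called higher (log2 fold change 1.01, adjusted p = 0.00239) and no other of them was called. In 3 of them both Ncr1Cre values lay above both control values (Cxcl15, Ccl9 and Cxcl13, all given above), in 1 below (Ccl17), and the other 10 overlapped or were at 0. Of the tested genes, all averaging 1 FPKM or more, 46.4% lay above and 29.9% below without overlap. That share is of stronger genes, and none was taken for genes under the filter. Ccl17, a ligand of Ccr4 that dendritic cells secrete, had 0 and 0.127 FPKM in the Ncr1Cre libraries, against 0.152 and 0.233 FPKM in the control libraries. Ccl22, the other ligand of Ccr4, and Ccl24, an eosinophil attractant, were listed at 0 in all libraries but Ncr1Cre replicate 2, with 0.0197 and 0.0388 FPKM there. Ccl26 was listed at 0 in all 4 libraries, as Cxcl11 was.

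**Figure D3:**
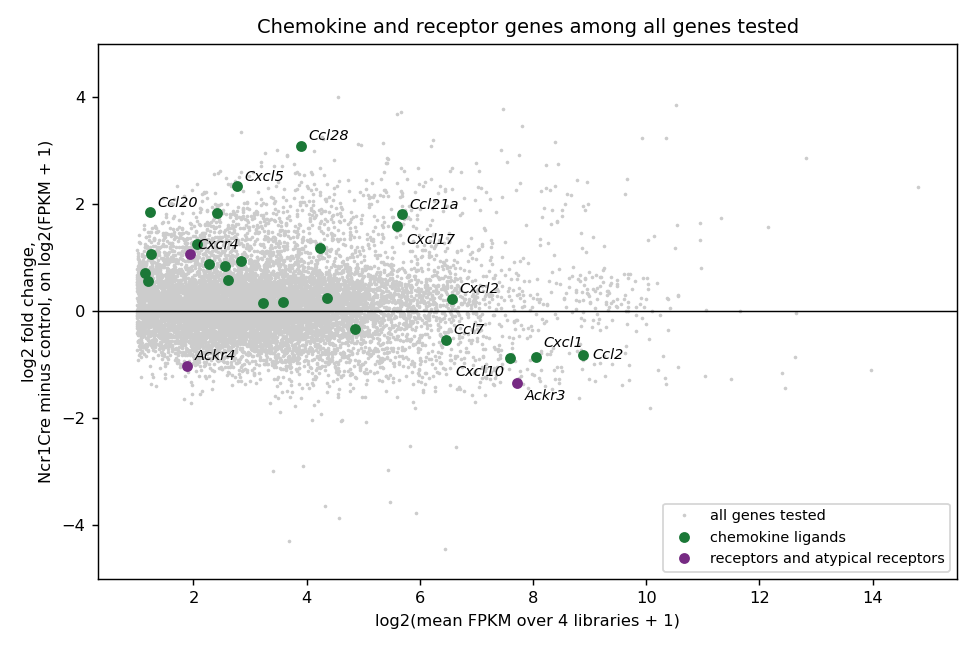
Log2 fold change (Ncr1Cre minus control) against log2(mean FPKM + 1) for the 11762 tested genes in grey, with the 24 ligands in green and the 3 receptors in purple. Ccl28 lies near the upper edge of the cloud at its level, and Ccl2, Cxcl1, Cxcl10 and Ackr3 lie low among abundant genes.

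Cxcr4 was the 1 signalling receptor that passed the filter, and it was higher in Ncr1Cre. This receptor of Cxcl12, carried by most leukocytes and by endothelial cells, had 3.74 and 4.67 FPKM in the Ncr1Cre libraries, against 1.51 and 1.41 FPKM in the control libraries (2.87-fold, log2 fold change 1.07, SE 0.129, adjusted p = 0.00256). Each Ncr1Cre library was above each control library, and the call held in all 9 alternative settings that kept the gene. The other 17 signalling receptors averaged under 1 FPKM. Ccr6, the receptor of Ccl20, was listed at 0 in all 4 libraries. Among these 17, 8 had both Ncr1Cre values above both control values, 1 below, and 8 overlapped or were at 0. Of the tested genes, all averaging 1 FPKM or more, 46.4% lay above and 29.9% below without overlap. No such share was taken for genes under the filter, so these receptors have no like background here.

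Of the other signalling receptors, 4 were called when no filter was used, all higher in Ncr1Cre: Ccr2, Cxcr2, Cx3cr1 and Ccr7. At that setting 3954 of 17500 genes were called higher and 2021 lower, so the count describes these receptors and supports nothing about them. Ccr2, the monocyte receptor of Ccl2 and Ccl7, had 0.637 and 0.788 FPKM in the Ncr1Cre libraries, against 0.337 and 0.320 FPKM in the control libraries. Cxcr2, the neutrophil receptor, had 0.395 and 0.304 FPKM in the Ncr1Cre libraries, against 0.108 and 0.102 FPKM in the control libraries. Cx3cr1, carried by monocytes, macrophages and NK cells, had 0.330 and 0.241 FPKM in the Ncr1Cre libraries, against 0.0488 and 0.102 FPKM in the control libraries. The genotypes did not overlap in any of these 3, and without a filter all 3 were called higher, with an adjusted p of 0.0219, 0.0185 and 0.0303 in that order. Ccr7, the receptor of Ccl21, had 0.253 and 0.190 FPKM in the Ncr1Cre libraries, against 0.0395 and 0.0482 FPKM in the control libraries, and was called higher there too (adjusted p = 0.0213). Ccr1, a receptor of myeloid cells, was not called, with 0.238 and 0.382 FPKM in the Ncr1Cre libraries, against 0.0643 and 0.149 FPKM in the control libraries (adjusted p = 0.0768 without a filter).

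The remaining signalling receptors were not called with or without a filter. Cxcr3, a receptor of NK cells and effector T cells, had 0.311 and 0.0914 FPKM in the Ncr1Cre libraries, against 0.105 and 0.110 FPKM in the control libraries. Cxcr6, a receptor of tissue-resident NK cells and innate lymphoid cells, had 0.346 and 0.453 FPKM in the Ncr1Cre libraries, against 0.369 and 0.176 FPKM in the control libraries. Both overlapped between the genotypes. Ccr8 had 0.845 and 0.778 FPKM in the Ncr1Cre libraries, against 0.699 and 0.440 FPKM in the control libraries, and Ccr10, the receptor of Ccl27 and Ccl28, had 0.536 and 0.362 FPKM in the Ncr1Cre libraries, against 0.459 and 0.674 FPKM in the control libraries. Xcr1, the receptor of Xcl1 on dendritic cells, had listed values of 0 in both Ncr1Cre libraries, against 0.0263 and 0.0107 FPKM in the control libraries. Cxcr1, Cxcr5, Ccr3, Ccr4 and Ccr9 did not reach 0.1 FPKM in any library. The 9 T-cell markers in the files summed to 3.21 and 3.76 FPKM in Ncr1Cre, against 2.54 and 2.76 FPKM in control, most of it Lck, the 1 tested, which did not pass. Cd3e and Cd3d were under 0.2 FPKM in Ncr1Cre and listed at 0 in both control libraries, while Cd3g overlapped between the genotypes.

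**Figure D4:**
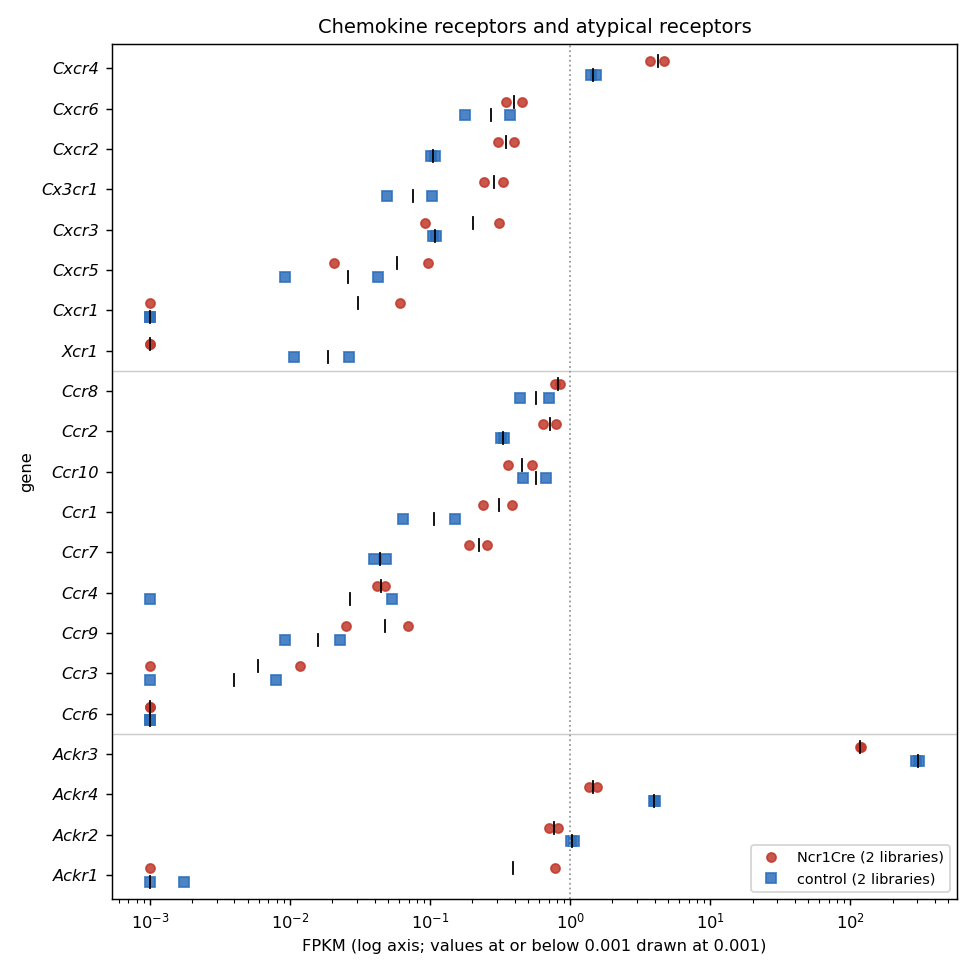
FPKM on a log axis of 17 signalling and 4 atypical receptors, with 2 Ncr1Cre libraries as circles above 2 control libraries as squares and a black tick at each mean. Ackr3 lies above 100 FPKM in all 4 libraries, Cxcr4 and Ackr4 lie between 1 and 10 FPKM, and nearly all others lie left of the dotted line at 1 FPKM.

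Both tested atypical receptors were called lower in Ncr1Cre, where 17.6% of all tested genes were, and Cxcr4 was called higher. Ackr3, which binds and removes Cxcl12 and Cxcl11, stood at 117 and 119 FPKM in the Ncr1Cre libraries, against 309 and 295 FPKM in the control libraries, 2.56-fold lower in Ncr1Cre (log2 fold change -1.35, SE 0.0614, adjusted p = 0.000225). Ackr4, which removes Ccl19, Ccl21 and Ccl25, had 1.36 and 1.55 FPKM in the Ncr1Cre libraries, against 3.93 and 4.0 FPKM in the control libraries, 2.73-fold lower in Ncr1Cre (log2 fold change -1.02, SE 0.104, adjusted p = 0.00158). In both genes every control library exceeded every Ncr1Cre library by more than the replicates differed. Over all tested genes, 29.9% lay lower in Ncr1Cre without overlap. Ackr2, a scavenger of inflammatory CC chemokines, was just under the filter at 0.814 and 0.705 FPKM in the Ncr1Cre libraries, against 1.0 and 1.06 FPKM in the control libraries, and was not called without a filter (adjusted p = 0.123). Ackr1, the receptor of red cells and venules that binds many chemokines, had 0.775 FPKM in Ncr1Cre replicate 1 and under 0.002 FPKM in the other 3 libraries, which is below the worth of 1 fragment, and 23.0% of its 31-base words occur in transcripts of Cadm3. Of the 13 stromal markers, the 11 called lower include Pdgfra, a fibroblast receptor gene, with 39.0 and 40.4 FPKM in the Ncr1Cre libraries, against 113 and 114 FPKM in the control libraries, while Prl8a2 was higher.

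Set beside their ligands, 15 of 17 receptors in Ncr1Cre and 15 of 17 in control had a mean below the summed mean of their listed ligands, and the exceptions were Ackr3 and Ccr8 in both genotypes. For Ccr8 in Ncr1Cre this rests on replicate 1, since in replicate 2 its listed ligands summed to 0.936 FPKM, above the receptor at 0.778 FPKM. The ligands of Ccr2 (Ccl2, Ccl7 and Ccl12) summed to 406 and 422 FPKM in the Ncr1Cre libraries, against 713 and 705 FPKM in the control libraries, while the Ccr2 values ran the other way. The ligands of Cxcr2 (Cxcl1, Cxcl2, Cxcl3 and Cxcl5) summed to 303 and 308 FPKM in the Ncr1Cre libraries, against 422 and 443 FPKM in the control libraries, again with larger receptor values in Ncr1Cre. For Ccr7, ligand and receptor values were both larger in Ncr1Cre, with ligand sums of 83.3 and 90.1 FPKM in the Ncr1Cre libraries, against 22.3 and 24.4 FPKM in the control libraries. For Ccr10 the ligands summed to 34.5 and 38.1 FPKM in the Ncr1Cre libraries, against 7.0 and 6.14 FPKM in the control libraries, while its own values overlapped. The Cxcl12 axis showed a ligand called lower, a signalling receptor (Cxcr4) called higher and a clearing receptor (Ackr3) called lower in Ncr1Cre, with Ackr3 at a mean of 118 FPKM in Ncr1Cre and 302 FPKM in control, above Cxcl12 at 24.5 and 31.2 FPKM. The Cxcl12 call was small (log2 fold change -0.33) and held in 7 of 10 alternative settings, while those of Cxcr4 and Ackr3 held in every setting that tested them. No test was made on pairs.

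**Figure D5:**
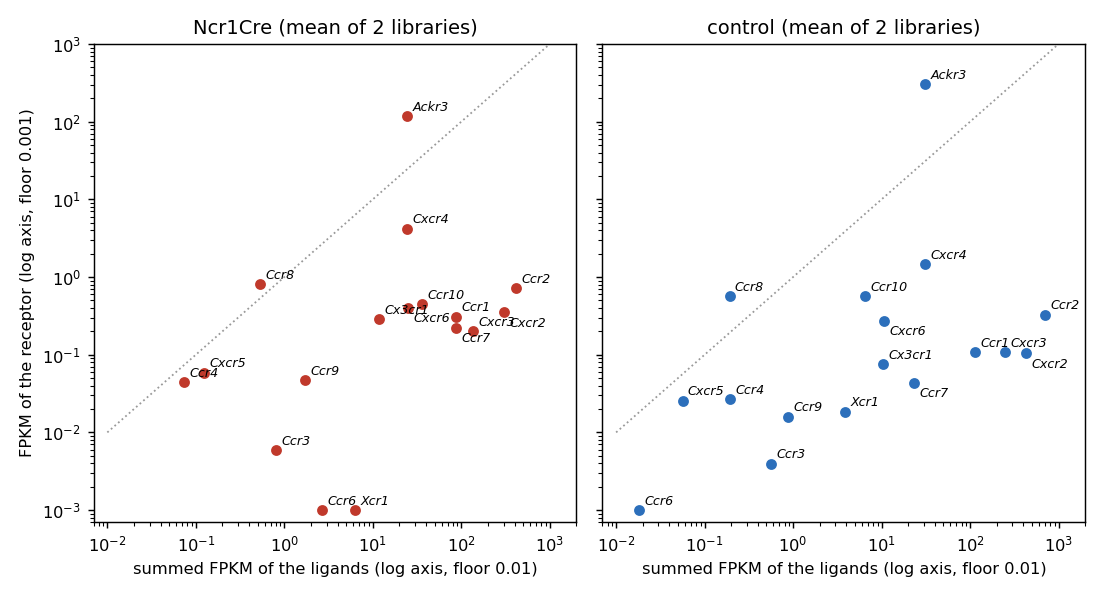
Mean FPKM of 17 receptors against the summed mean FPKM of their listed ligands, both on log axes, for Ncr1Cre (left) and control (right), with a dotted line where both are equal. In these means, all but Ackr3 and Ccr8 lie below the line in both genotypes.

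Many genes of the family lie in clusters. In the order of reference genes, 37 of the 59 placed genes lay in 10 runs of neighbours with at most 2 other coding genes between them. In the run that begins with Ccl2 and Ccl7, both tested genes were lower in Ncr1Cre. In the run of Ccl5, Ccl9, Ccl6, Ccl3 and Ccl4, 3 of 4 tested genes were higher and 0 lower. Over all tested genes 30.9% were called higher and 17.6% lower. Ccl6 averaged 0.646 FPKM in control and so passed the filter through Ncr1Cre alone. It lost its call after median rescaling and quantile normalization, so these counts support nothing about the runs. The CXC run held both directions, with Cxcl5, Cxcl3 and Cxcl2 higher and Cxcl1 lower. Between Cxcl5 and Cxcl3 in this region lie Ppbp and Pf4, platelet chemokines with older names outside the symbol rule, and both were higher in Ncr1Cre. Ppbp had 7.95 and 7.47 FPKM in the Ncr1Cre libraries, against 1.06 and 1.32 FPKM in the control libraries (log2 fold change 1.99, SE 0.112, adjusted p = 0.000328). Pf4 had 6.76 and 4.30 FPKM in the Ncr1Cre libraries, against 0.383 and 0.273 FPKM in the control libraries (log2 fold change 2.27, SE 0.204, adjusted p = 0.00107). Erythroid markers, a sign of blood, summed to 364 and 427 FPKM in Ncr1Cre, against 48.6 and 52.0 FPKM in control, and their part in the platelet genes was not tested.

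Other genes of chemokine biology did not share 1 direction. Of 8 tested genes listed as chemotactic ligands outside the symbol rule, 3 were called higher (Ppbp, Pf4 and Mif) and 3 lower (Rarres2, Cmtm3 and Cmtm7). Cmtm3, Cmtm6 and Cmtm7 are membrane proteins related to the chemokine-like factor, not secreted attractants. Apart from them, Rarres2 alone was called lower. Over all tested genes 30.9% were called higher and 17.6% lower, the shares to set beside each count in this paragraph. Rarres2, which encodes chemerin, had 236 and 238 FPKM in the Ncr1Cre libraries, against 397 and 399 FPKM in the control libraries (log2 fold change -0.74, SE 0.0568, adjusted p = 0.000676), and its receptor gene Cmklr1 had 17.6 and 21.4 FPKM in the Ncr1Cre libraries, against 46.4 and 34.6 FPKM in the control libraries (log2 fold change -1.01, SE 0.169, adjusted p = 0.00731). Ligand and receptor of the chemerin pair were both lower in Ncr1Cre. Of 4 tested receptors outside the rule, Cd74, a receptor of Mif, was higher (log2 fold change 0.75, adjusted p = 0.00350), Ccrl2, a chemerin-binding atypical receptor, was lower (log2 fold change -0.49, adjusted p = 0.00446), as Cmklr1 was, and Ccr1l1 did not pass (log2 fold change 0.25, adjusted p = 0.145). Of 9 tested genes of chemokine cleavage and presentation, 0 were higher and 3 lower, with Mmp2, a protease that cleaves Ccl7 and Cxcl12, at 152 and 157 FPKM in the Ncr1Cre libraries, against 346 and 357 FPKM in the control libraries (log2 fold change -1.18, SE 0.0609, adjusted p = 0.000278). The others were Ndst1, a heparan sulfate enzyme (log2 fold change -0.63, adjusted p = 0.00907), and Sdc1, a heparan sulfate proteoglycan (log2 fold change -0.25, adjusted p = 0.0383), and Sdc4 did not pass (log2 fold change -0.16, adjusted p = 0.0733).

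Of 24 tested genes of G protein and migration signalling, 7 were called higher, 5 lower and 12 did not pass. Over all tested genes 30.9% were called higher and 17.6% lower, so these counts lie near the background. Rgs3, a regulator that ends G protein signals, was lower at 33.1 and 37.2 FPKM in the Ncr1Cre libraries, against 75.2 and 82.2 FPKM in the control libraries (log2 fold change -1.14, SE 0.0908, adjusted p = 0.000748). Gng5, a G protein gamma subunit, was higher at 144 and 158 FPKM in the Ncr1Cre libraries, against 73.8 and 81.8 FPKM in the control libraries (log2 fold change 0.95, SE 0.0852, adjusted p = 0.00108). Gnai1, an inhibitory G protein alpha subunit, was lower (log2 fold change -0.71, adjusted p = 0.00483) and Ptk2b, a kinase of leukocyte migration, was higher (log2 fold change 0.64, adjusted p = 0.00501). Of 28 tested cytokine inducers and transcription factors, 7 were higher, 7 lower and 14 did not pass, beside the same 30.9% and 17.6%. Il1a, an inducer of Cxcr2 ligands, had 74.2 and 72.3 FPKM in the Ncr1Cre libraries, against 9.34 and 10.4 FPKM in the control libraries (log2 fold change 2.77, SE 0.0817, adjusted p = 0.000126). Nfkbia, an inhibitor and target of NF-kB, had 627 and 623 FPKM in the Ncr1Cre libraries, against 1003 and 954 FPKM in the control libraries (log2 fold change -0.65, SE 0.0607, adjusted p = 0.00123). Il4ra, the interleukin-4 receptor chain, was lower (log2 fold change -1.08, adjusted p = 0.000367) and Irf7, an interferon regulatory factor, was higher (log2 fold change 0.95, adjusted p = 0.00172). Ifng, the inducer of Cxcl9 and Cxcl10, is named although it was not tested, and this choice was made with its values known: it had 0.364 and 0.637 FPKM in the Ncr1Cre libraries, against 0.237 and 0.243 FPKM in the control libraries. The median log2 fold changes of these 2 lists were 0.01 and 0.09, against 0.11 over all tested genes.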

How the data were processed

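RNA was measured in 4 libraries (2 Ncr1Cre, 2 control). The deposited values are gene-level FPKM. Per the submitters' processing notes, the authors used Cufflinks and mm9, the mouse genome build. Versions, aligner, annotation and the handling of reads that map to several places are not known here. The rest of the labelled genotype and the single values of 1 signalling receptor, which counts in the totals, are not reported here. Groups came from the genotype label.

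The main test was limma 3.58.1 (R 4.3.3) with an intensity trend on log2(FPKM + 1), genes averaging 1 FPKM or more, two-sided, Benjamini-Hochberg adjusted over the 11762 genes tested, and was tested on simulated data. Exact permutation of 2 and 2 libraries has a smallest p of 0.333 and was not used. Family genes averaging 1 FPKM or more were all named, and of the others receptors of named ligands and those nearest the filter. Of each list of other chemokine, signalling and cytokine genes, up to 4 with the smallest p were named. Cell-type markers and some further list genes were named without that rule. Members and lists were chosen with earlier results of these data known.

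FPKM are not counts. Totals were sought that make low values of genes with 1 annotated transcript whole within 0.02 fragments: between 31.0% and 37.4% came out whole, so depth is an estimate and no count test was run. A multiple of such a total also gives whole values, and the lowest was taken. Replicates differed beyond sampling noise (median chi-square per gene 2.27 for the Ncr1Cre pair and 2.21 for the control pair, where sampling noise would give 0.455), though errors in totals and lengths raise this too. A gene at exactly 0 is given as listed at 0. Neighbours, transcript lengths and shared 31-base words came from GRCm38 annotations, and promoters from RefSeq (GRCm38.p6). Of the identifiers, 21750 matched the reference names. The 3 motifs searched on both strands were GGNNTTTCC, GAAANNGAA and TTCNNNGAA, the last the letters of a STAT site, held by 7.02% of windows and by those of Ccl17, Ccr6 and Cxcl14. Alternatives were another pseudocount, other filters, rescaling, the replicate block and leaving out each library.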

Additional observations from a re-analysis of the deposited data

How the results depend on the processing

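Of the genes called higher, 12 of 17, and of those called lower, 5 of 7, kept their direction and call in every alternative that tested them; the exceptions were Ccl6, Ccl27a, Cxcl2, Cxcl14 and Xcl1 among the higher and Ccl7 and Cxcl12 among the lower. Without a filter, 7 receptors were called, 5 of them higher, where 3954 of 17500 genes were called higher and 2021 lower. With only genes averaging 5 FPKM or more, 15 family members were called, with 9 higher (all 9 ligands) and 1 receptor called, which was lower, so 0 receptors were higher; fewer members were tested there. Leaving out 1 library gave 1354 to 1883 genes called lower over all genes (1354 without control replicate 1), 3 to 5 ligands called lower (3 without control replicate 2), and 17 to 22 members called in all, where the lone library is assumed to vary like the others. Ccl5, not called in any setting, had a log2 fold change of -0.015 after median rescaling, -0.0062 after quantile normalization and -0.088 to 0.38 with 1 library left out. Same-numbered libraries shared only a number (correlation of replicate deviations 0.16 over genes), and with the replicate block 6004 genes and 25 members were called, with Ccl25 added (adjusted p = 0.0342). The cause of these changes was not tested beyond the number of genes and libraries. Depth limits the values far below 1 FPKM, most receptors among them, which rest on few fragments.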
